A study of Mus musculus with 6 samples.

Results

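The genes described here are 10 neighbours on mouse chromosome 16, named in chromosomal order Tekt5, Nubp1, Tvp23a, Dexi, Socs1, Tnp2, Prm3, Prm2, Prm1 and Snn. They were chosen by position and by the difference between genotypes seen in earlier results of these arrays, so that difference is given below as a description and is not tested for them. All 10 were among the 19938 genes measured by a probe set with 1 gene symbol, and each had 1 such probe set, so the choice of the brightest probe set changed nothing.

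The arrays measured RNA of medullary epithelial cells of the thymus, stromal cells in which maturing T cells meet proteins that belong to other organs. Cells were sorted as CD45-, Ly51int and classIIhi from mice of 4 to 6 weeks on the (B6xNOD)F1 background, 3 mice labelled Aire WT and 3 labelled Aire KO (Aire-/-), each mouse giving 1 array. Aire is a transcriptional regulator of these cells, and both groups share the mixed background, the gate and 2 rounds of RNA amplification. The labels do not say how Aire was disrupted.

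The locus joins genes of unlike function. Socs1 encodes a cytokine-induced protein that inhibits JAK kinases and so restrains signalling by interferon gamma. Beside it lie the protamine genes and Tnp2, which are transcribed in spermatids, where transition proteins and then protamines replace histones as the sperm nucleus condenses. Medullary epithelial cells are known to transcribe many such tissue-restricted genes, part of them through Aire. In bulk RNA, fewer cells of a type and less RNA per cell cannot be told apart.

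Median intensity lay between 92.9 and 98.2 on the 6 arrays. Precision is limited by having only 6 arrays. Pearson correlations of log2 intensity, across probe sets, were 0.990 to 0.993 within a genotype and 0.976 to 0.985 between genotypes, and no array stood apart. The Aire probe set read 12.00, 11.92 and 11.99 on the WT arrays and 12.38, 12.41 and 12.42 on the KO arrays, so this probe set, which spans the transcript, does not check the genotype labels. All 12 medullary epithelial markers listed passed the intensity filter, a log2 value above 5.97 on at least 3 arrays. The cortical epithelial marker Psmb11, the dendritic cell marker Itgax, the B cell markers Cd79a and Ms4a1 and the endothelial marker Kdr did not pass it. Most markers of other cells did, with 5 of 6 cortical epithelial and 7 of 7 measured thymocyte markers above the filter. So were 4 of 7 measured dendritic, macrophage and B cell markers and 6 of 7 fibroblast and endothelial markers.

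The promoters of Socs1 and of the 4 spermatid genes beside it are shown because these 5 genes form the core of the locus and most of their KO arrays read higher. Each line gives the 150 bases before the annotated start, from RefSeq on GRCm38.p6, in the direction of transcription, with motif matches in capitals.
Socs1, chr16:10785537-10785686, minus strand: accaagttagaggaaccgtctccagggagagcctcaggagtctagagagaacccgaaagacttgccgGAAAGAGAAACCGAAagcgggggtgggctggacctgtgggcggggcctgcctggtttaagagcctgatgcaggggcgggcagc
Tnp2, chr16:10788656-10788805, minus strand: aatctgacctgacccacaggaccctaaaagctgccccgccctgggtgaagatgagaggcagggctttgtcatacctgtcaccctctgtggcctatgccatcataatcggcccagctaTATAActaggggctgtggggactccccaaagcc
Prm3, chr16:10790915-10791064, minus strand: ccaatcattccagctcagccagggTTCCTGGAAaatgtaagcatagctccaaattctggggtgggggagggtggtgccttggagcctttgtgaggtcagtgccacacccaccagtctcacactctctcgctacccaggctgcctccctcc
Prm2, chr16:10792106-10792255, minus strand: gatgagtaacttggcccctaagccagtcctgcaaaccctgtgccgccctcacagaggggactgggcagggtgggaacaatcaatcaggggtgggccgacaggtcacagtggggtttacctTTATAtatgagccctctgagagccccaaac
Prm1, chr16:10796824-10796973, minus strand: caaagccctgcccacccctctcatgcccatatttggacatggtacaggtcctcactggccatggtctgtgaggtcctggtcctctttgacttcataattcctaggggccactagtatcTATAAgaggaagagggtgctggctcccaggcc
The capitals mark matches on either strand to TATAA (the TATA word), GAAANNGAA (the core of an interferon-stimulated response element) and TTCNNNGAA (the gamma-activated site bound by STAT proteins). TGACG, the core of the cyclic AMP response element, was also searched. Windows of 300 bases, 250 before and 50 after the start, were found for 9 of the 10 genes, the exception being Tvp23a.

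The Socs1 window held GAAANNGAA at bases -83 to -75 and again at -77 to -69 from the start, 2 overlapping matches on the same strand. This motif was in 8.56% of 32851 windows of that length and in 1 of the 9 windows of the locus. The 32851 windows, called all windows below, leave out a chromosome other than that of the locus. TATAA was in 3 of the 9, at -33 to -29 in Tnp2, -32 to -28 in Prm1 and, read on the other strand, -30 to -26 in Prm2, and in 24.9% of all windows. TTCNNNGAA was in the Prm3 window alone of these 9, at -126 to -118, where it reads the same on both strands, and in 8.30% of all windows. TGACG was in 0 of the 9 windows and in 20.8% of all. A match is a run of letters and not a bound site, and a window without one says nothing about the factor.

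Along the locus the KO arrays read somewhat higher than the WT arrays, with small differences. The difference of the KO mean minus the WT mean, in log2 intensity, ran from -0.02 for Tekt5 to 0.60 for Dexi, with a median of 0.34 over the 10 genes, beside 0.02 over all 13925 tested genes. In 7 of the 10 every KO array lay above every WT array, and 3 overlapped, while 42.4% of all tested genes had groups that did not overlap, 22.0% with the KO arrays above and 20.5% with them below. Since the locus was chosen with this contrast known, nothing is read from these counts.

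**Figure D1:**
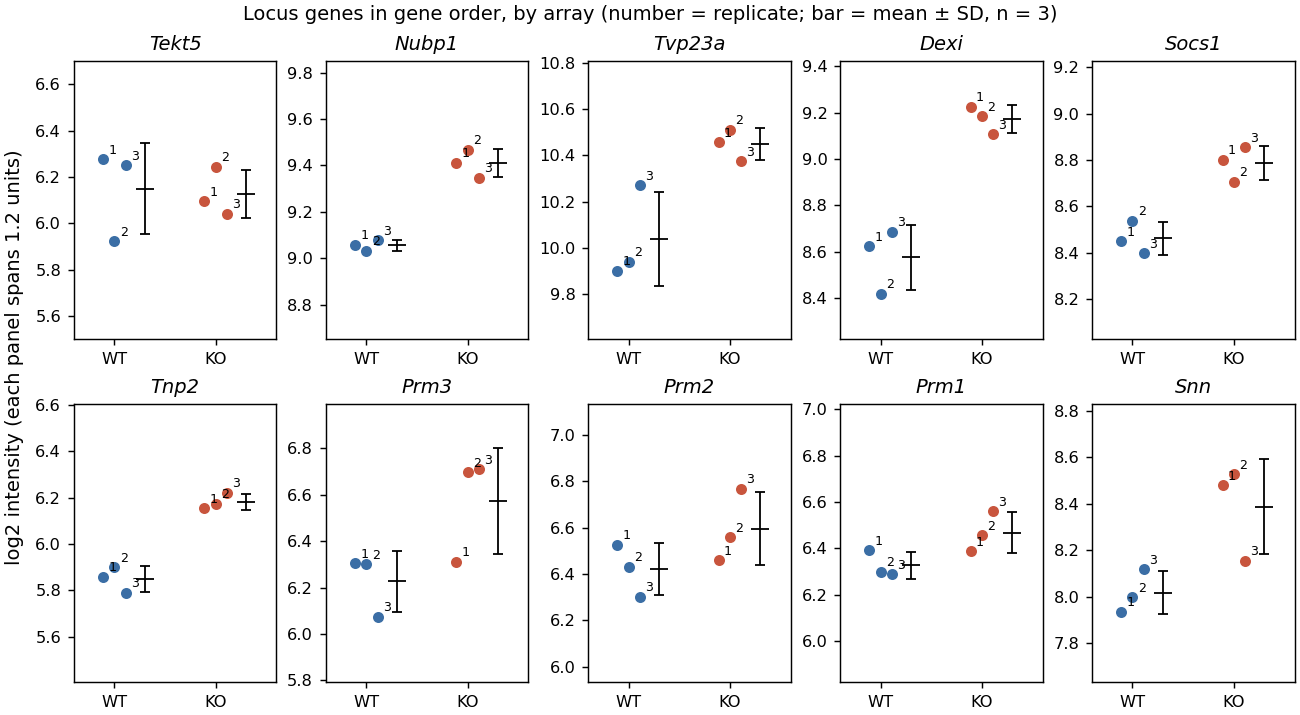
Log2 intensity (vertical axis, 1.2 units in every panel) of the 10 locus genes in chromosomal order on the 3 WT and 3 KO arrays; points are arrays numbered by replicate, and black bars are the mean ± SD. The KO points lie above all WT points in 7 panels and overlap with them for Tekt5, Prm2 and Prm1.

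Tekt5 (probe set 10437646) encodes a tektin, a filament protein of the sperm flagellum. It read 6.28, 5.92 and 6.25 on the WT arrays and 6.10, 6.24 and 6.04 on the KO arrays, close to the intensity filter of 5.97, with WT replicate 2 under it. The groups overlapped, at 6.15 ± 0.20 in WT and 6.13 ± 0.10 in KO (SD, n = 3), a difference of -0.02 (SE 0.11). It was the only one of the 10 whose mean was not higher in KO, and the sign of its difference changed in 5 of 14 alternatives.

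Nubp1 (probe set 10433494) encodes a nucleotide-binding protein of cytosolic iron-sulfur cluster assembly. Its WT values were 9.06, 9.03 and 9.08 and its KO values 9.41, 9.47 and 9.35. The arrays of a genotype stood close together, the WT SD being 0.02, and the lowest KO array lay 0.27 above the highest WT array. The means were 9.06 and 9.41, a difference of 0.35 (SE 0.08, n = 3 per group), or 1.28-fold.

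Tvp23a (probe set 10437655) encodes a membrane protein of Golgi vesicles. WT arrays read 9.90, 9.94 and 10.27, KO arrays 10.46, 10.51 and 10.38. WT replicate 3 stood above the other WT arrays and only 0.10 below the lowest KO array. The difference was 0.41 (SE 0.11, n = 3 per group), 0.34 without WT replicate 1 and 0.53 without WT replicate 3.

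Dexi (probe set 10437664), named for its induction by dexamethasone, showed the largest difference of the 10. It read 8.62, 8.42 and 8.69 in WT and 9.23, 9.19 and 9.11 in KO. All KO arrays were high, and the gap to the highest WT array was 0.42. From 8.58 ± 0.14 to 9.17 ± 0.06 (SD, n = 3) the difference was 0.60 (SE 0.09), or 1.51-fold, and it stayed between 0.52 and 0.65 when any 1 array was left out.

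Socs1 (probe set 10437668) was 1.25-fold higher in KO. WT arrays read 8.45, 8.54 and 8.40 and KO arrays 8.80, 8.71 and 8.85. The groups did not overlap, with 0.17 between the highest WT and the lowest KO array. The means were 8.46 ± 0.07 and 8.79 ± 0.07 (SD, n = 3), a difference of 0.32 (SE 0.08), which ran from 0.29 to 0.36 with 1 array left out.

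Tnp2 (probe set 10437673) encodes transition protein 2, which binds spermatid chromatin between the loss of histones and the arrival of protamines. It read 5.86, 5.90 and 5.79 in WT, all under the intensity filter, and 6.15, 6.17 and 6.22 in KO, all above it. The gene therefore passed the filter through the KO arrays alone and had to be higher there. The difference was 0.33 (SE 0.08, n = 3 per group), and 0.22 when an offset of 32 was added to the intensities.

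Prm3 (probe set 10437677), a member of the cluster whose protein is acidic, unlike the arginine-rich protamines, had the widest spread of the 4 spermatid genes in KO. Its values were 6.30, 6.30 and 6.08 in WT and 6.31, 6.70 and 6.71 in KO. KO replicate 1 lay with the WT arrays, 0.01 above the highest of them, and KO replicates 2 and 3 stood apart. The difference of 0.35 (SE 0.12, n = 3 per group) was 0.48 without KO replicate 1.

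Prm2 (probe set 10437680) encodes the protamine that is cleaved from a precursor. WT arrays read 6.53, 6.43 and 6.30 and KO arrays 6.46, 6.56 and 6.77. The groups overlapped, and only KO replicates 2 and 3 lay above every WT array. The difference was 0.17 (SE 0.10, n = 3 per group), with a range of 0.09 to 0.24 over the 6 fits that leave out 1 array.

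Prm1 (probe set 10437684) encodes the other protamine of sperm. It read 6.39, 6.30 and 6.29 in WT and 6.39, 6.46 and 6.56 in KO. KO replicate 1 lay 0.01 below WT replicate 1, so the groups met. The difference of 0.14 (SE 0.08, n = 3 per group) was the smallest among the spermatid genes beside Socs1. In Tnp2, Prm3, Prm2 and Prm1 alike, KO replicate 1 was the lowest and KO replicate 3 the highest KO array.

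Snn (probe set 10433578) encodes stannin, a small membrane protein studied for its part in organotin toxicity. WT arrays read 7.93, 8.00 and 8.12 and KO arrays 8.48, 8.53 and 8.15. KO replicate 3 lay 0.04 above the highest WT array, and KO replicates 1 and 2 stood well above all WT arrays. The means were 8.02 ± 0.09 and 8.39 ± 0.20 (SD, n = 3), a difference of 0.37 (SE 0.11), and 0.49 without KO replicate 3.

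The arrays of a genotype did not order the 10 genes in 1 way. KO replicate 3 was the highest KO array for 5 of the genes, all of them between Socs1 and Prm1, and the lowest for the other 5, and KO replicate 2 was the highest for 4. Over all tested genes KO replicate 3 was the highest KO array for 24.7% and KO replicate 2 for 46.0%. Set against each gene's WT mean, the median of the 10 was 0.32, 0.37 and 0.34 on KO replicates 1, 2 and 3. Since the genes were chosen with this difference known, nothing is read from these medians. They also hide single genes: KO replicate 1 lay near the WT arrays in Prm3, Prm2 and Prm1, and KO replicate 3 did so in Snn.

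The other measured genes of the stretch show what lay between and beside the 10. Between Tekt5 and Snn the RefSeq order holds 17 further genes, of which 6 were measured. Ciita, the transactivator of MHC class II genes, which lies between Tvp23a and Dexi, read 9.93 ± 0.04 in WT and 10.23 ± 0.10 in KO (SD, n = 3) and rose by 0.29 (limma adjusted p = 0.0255). Clec16a, a membrane-trafficking and mitophagy gene between Dexi and Socs1, had a difference of 0.24 and was not called (limma adjusted p = 0.060), though its groups did not overlap. The lncRNA gene Gm9861, next to Snn, was alike at 0.24 (limma adjusted p = 0.056), and Gm10832, another lncRNA gene, stood at 0.16 and was not called. Litaf, a regulator of endosomal trafficking, stood at -0.04 with overlapping groups, and Rmi2, a gene of the Bloom helicase complex, lay under the filter at 0.18. Of the 5 tested inside the stretch, 1 rose and 0 fell, where 12.0% of all tested genes rose and 14.1% fell, and their median was 0.24.

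Outside the stretch the differences were of either sign. On the side of Tekt5, Emp2, an epithelial membrane protein gene and the nearest measured neighbour, read 8.33, 8.34 and 8.47 in WT and 7.90, 7.68 and 7.76 in KO and fell by 0.60 (SE 0.09, limma adjusted p = 0.00050, n = 3 per group). The deubiquitinase gene Usp7 fell by 0.31 and 1810013L24Rik fell by 0.33, while Grin2a, at -0.11, Rpl39l, at 0.03, and Atf7ip2, at 0.01, lay under the filter. On the side of Snn, Txndc11, at 0.10, and Zc3h7a, at -0.13, were not called. Rsl1d1, a ribosome biogenesis gene, fell by 0.36 and the translation termination factor gene Gspt1 fell by 0.40. Beyond them Tnfrsf17, which encodes the plasma cell receptor BCMA, rose by 0.43 and the sorting nexin gene Snx29 by 0.60.

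Of the 14 tested genes of the stretch and its flanks that are not among the 10, 3 rose and 5 fell by limma, where 26.1% of all tested genes were called in either direction, and their median difference was 0.03. The count of 8 was 5 without WT replicate 1, without KO replicate 1 or without KO replicate 3. Ciita was not called without WT replicate 1 or 2 or KO replicate 1 or 2, nor with the replicate block (limma adjusted p up to 0.091). Usp7 and Rsl1d1 lost their calls without WT replicate 1 or 3 or KO replicate 1 or 3, and 1810013L24Rik without KO replicate 3. Clec16a and Gm9861 were called in 6 and 7 of 15 alternatives.

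**Figure D2:**
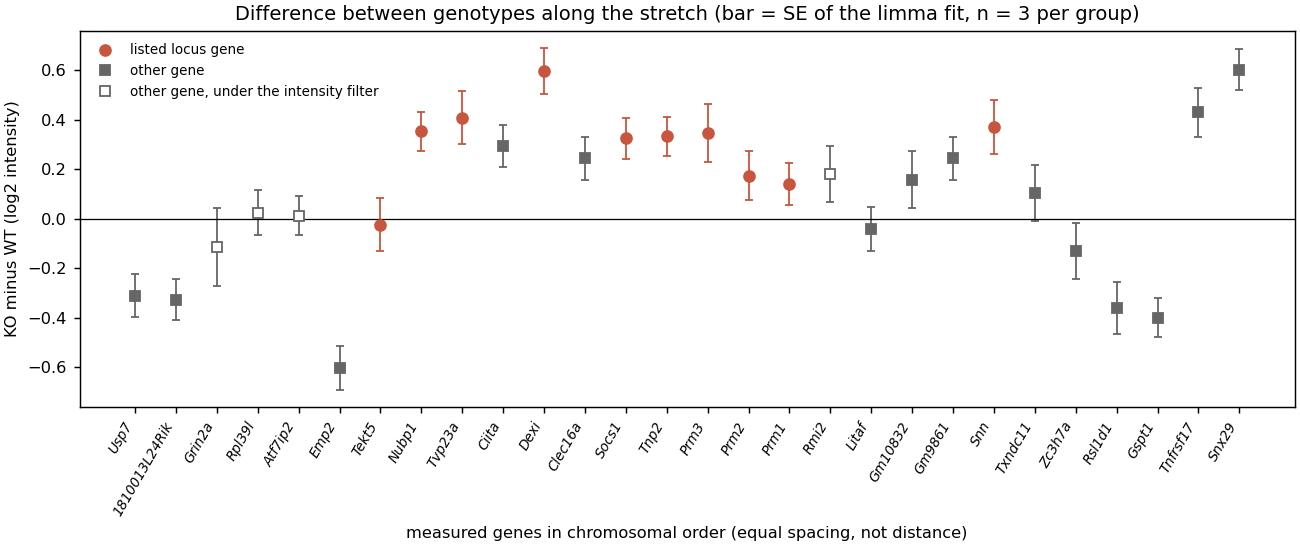
Difference of the KO mean minus the WT mean in log2 intensity (vertical axis, bar = SE, n = 3 per group) of 28 measured genes in chromosomal order at equal spacing; red circles are the 10 locus genes, grey squares other genes, open where under the intensity filter. Values run near or above 0 from Tekt5 to Snn, and the flanking genes are of either sign, from Emp2 at -0.60 to Snx29 at 0.60.

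Spermatid and sperm structure genes outside the locus, listed for the function shared by Tekt5, Tnp2 and the protamine genes, were mostly too dim to test. Of 30 listed, 22 lay under the filter, and of the 8 tested 2 rose and 0 fell by limma, beside 12.0% and 14.1% of all tested genes. H1f7, a linker histone gene of spermatids, rose by 0.37 from 6.54 ± 0.12 to 6.92 ± 0.07 (SD, n = 3, limma adjusted p = 0.0098). Acr, which encodes the acrosomal protease acrosin, rose by 0.32 (limma adjusted p = 0.0255). It was above the filter on KO arrays alone, so it had to be higher there, and its call was lost with the offset of 32 and without each array but WT replicate 1, where adjusted p reached 0.070. Tekt2, a tektin gene like Tekt5, stood at -0.07 and was not called. The median difference was 0.03 over the 8 tested and 0.11 over all 30.

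Other genes of cytokine signalling were listed for the pathway of Socs1. Of 27 tested SOCS, JAK, STAT, receptor and inhibitor genes outside the locus, 2 rose, 8 fell and 17 were not called by limma (26.1% of all tested genes were called), with a median of -0.06. Among the other SOCS genes, Socs2, an inhibitor of growth hormone signalling, fell by 1.08 from 8.46 ± 0.23 to 7.39 ± 0.20 (SD, n = 3, limma adjusted p = 0.00011). Socs3, an inhibitor of signalling by the interleukin 6 family, fell by 0.33 (limma adjusted p = 0.022), a call lost without WT replicate 2 (0.059) or KO replicate 1 (0.10). Cish, Socs4, Socs5, Socs6 and Socs7 were not called, with differences between -0.10 and 0.08.

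Among receptors, Il6st, the shared chain of interleukin 6 family receptors, fell by 0.71 and Ifnar2, of the type I interferon receptor, by 0.50. Of the STAT genes, Stat4 fell by 0.62 and Stat2 by 0.45, while Stat5b rose by 0.67 from 8.68 ± 0.07 to 9.36 ± 0.16 (SD, n = 3, limma adjusted p = 0.00038). The kinase gene Jak2 and the interferon gamma receptor gene Ifngr2 were called lower at -0.35 and -0.31. Both lost the call without KO replicate 1, and Ifngr2 also without KO replicate 3, with adjusted p up to 0.071. The phosphatase gene Ptpn6 was called higher at 0.36, a call lost without WT replicate 1 or 2 or KO replicate 2 or 3 (limma adjusted p up to 0.12).

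Of 14 tested genes induced by interferon gamma, 2 rose, 5 fell and 7 were not called by limma (26.1% of all tested genes were called), with a median of -0.10. Ido1, an enzyme of tryptophan breakdown, read 7.27 ± 0.17 in WT and 5.70 ± 0.09 in KO (SD, n = 3) and fell by 1.58 (limma adjusted p = 7.9e-07). Only its WT arrays exceeded the filter, so it had to be lower in KO. The GTPase genes Irgm1 and Gbp3 fell by 1.42 and 1.17, the chemokine gene Cxcl9 by 0.92 and Nlrc5, the transactivator of MHC class I genes, by 0.34. Irf8, an interferon regulatory factor gene, rose by 0.75, and the immunoproteasome gene Psmb9 by 0.26, while Irf1, Cxcl10 and Tap1, at -0.06, -0.08 and -0.19, were not called. Psmb9 kept its call with all arrays or without KO replicate 2 but not without any other array or with the replicate block, where adjusted p reached 0.13. Nlrc5 lost its call without KO replicate 1 or 3 and with the mean of its probe sets (adjusted p = 0.096).

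Marker sums moved with genotype as well. The summed intensity of the 12 medullary epithelial markers ran from 52135 to 52929 on WT arrays and from 54561 to 56487 on KO arrays, higher in KO like the locus genes and Ciita. This sum rested mostly on Cd74, H2-Aa and H2-Ab1, at 0.11, 0.20 and 0.20. Of the 12 markers 6 had a difference above 0, among them Aire at 0.44 and Relb at 0.35. Krt5, Krt14 and Epcam were lower in KO, at -0.84, -0.44 and -0.37. The summed intensity of 7 thymocyte markers ran from 941.0 to 1634 in WT and from 652.8 to 914.1 in KO, and Ptprc, which encodes CD45, read 7.09 in WT and 6.47 in KO. Cd3g had the largest difference of these markers, at -1.40. The groups overlapped for Cd3e, at -0.01, for Ptcra, at 0.04, and for Cd4, Cd8a and Rag1. The sum of 7 fibroblast and endothelial markers ran from 1023 to 1101 in WT and from 827.7 to 945.9 in KO. It held members of either sign, from -0.63 for Col1a1 to 0.13 for Kdr. The sum of 6 cortical epithelial markers, 3085 to 3754 in WT and 2714 to 3059 in KO, held members of either sign, with differences of -0.996 for Enpep and -0.72 for Ctsl, and 0.36 for Prss16 and 0.16 for Ly75. The sum of 7 dendritic, macrophage and B cell markers, 3192 to 3524 and 3129 to 3223, overlapped between genotypes and rested mostly on Lyz2, at -0.06. Within it Itgam, above the filter on WT arrays alone, stood at -1.29 and Csf1r at -0.54, lower in KO like several interferon gamma induced genes, and Cd68 stood at 0.32. The part of these markers in the differences of the locus genes, of Ciita and of the interferon gamma induced genes was not tested.

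**Figure D3:**
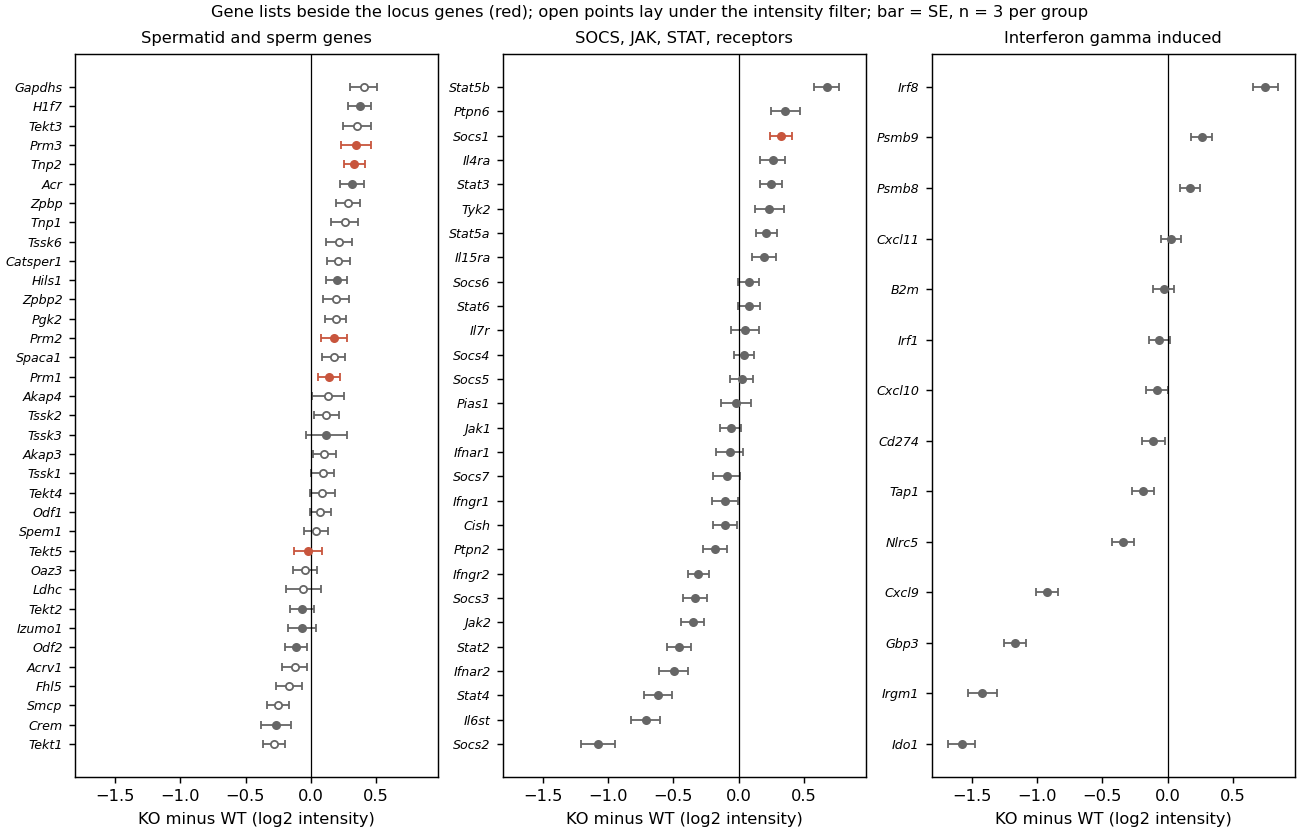
Difference of the KO mean minus the WT mean in log2 intensity (horizontal axis, bar = SE, n = 3 per group) for sperm genes, genes of JAK-STAT signalling and interferon gamma induced genes; red points are locus genes and open points lay under the intensity filter. Socs1, at 0.32, lies near the upper end of its panel while Socs2 is lowest at -1.08, and the protamine genes lie among other sperm genes.

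Genes elsewhere in the genome had patterns over the 6 arrays close to those of Socs1 and Dexi. Likeness was the root mean square distance between log2 values centred on each gene's mean, over 6 arrays and 13901 tested genes outside the stretch. Nearest to Socs1 were Tradd, an adaptor of tumour necrosis factor receptors, at 0.03, the phospholipase gene Pla2g12a at 0.03 and Vps51 of endosomal transport at 0.03. Tradd read 7.25, 7.34 and 7.19 in WT and 7.59, 7.47 and 7.70 in KO. As in Socs1, replicate 2 was the highest WT array and the lowest KO array. Nearest to Dexi, the gene with the largest difference, were Fmnl2 at 0.05, Scmh1 at 0.05 and Gdap1l1 at 0.05, with differences of 0.54, 0.56 and 0.62. They share with Dexi a low WT replicate 2. With 6 arrays and so many genes, such near matches are a description only.

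**Figure D4:**
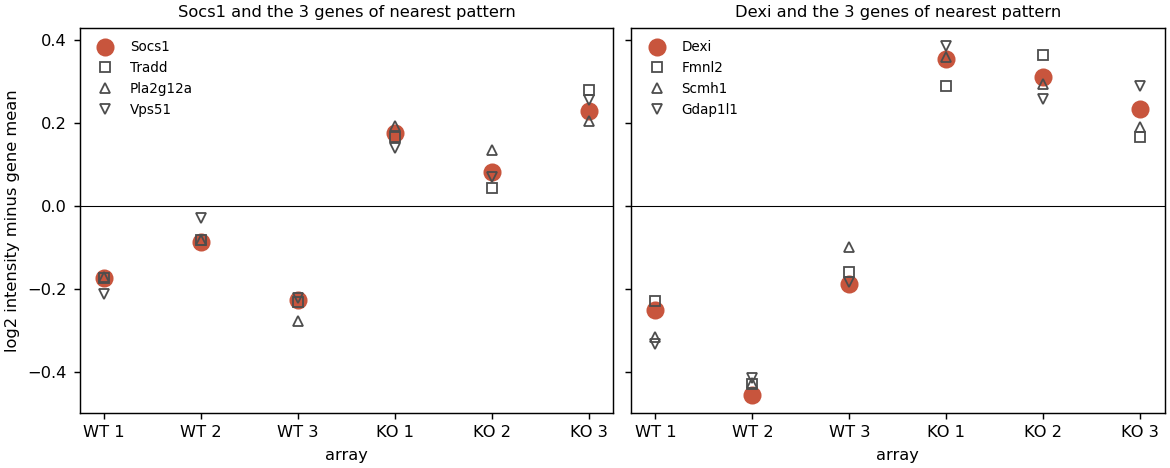
Log2 intensity minus the gene's mean (vertical axis) on the 6 arrays for Socs1 and Dexi (red) and the 3 genes nearest to each in pattern (open symbols). In both panels every WT array lies below 0 and every KO array above it for all 8 genes.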

How the data were processed

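Expression was measured on 6 arrays, 1 mouse each. The deposited table gives, for every probe set, an intensity on the linear scale. The submitters' processing notes name RMA as the authors' method, which removes background and gives all arrays nearly the same distribution, so a change in total RNA is not seen and differences of dim genes are understated. Its version and the genome build are not stated in those notes or labels. Of 35512 probe sets, 21789 had 1 gene symbol in the platform annotation, 1621 several and 12102 none. RefSeq (GRCm38.p6) gave gene order, and Entrez identifiers of 21698 probe sets matched it.

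Values were taken to log2 (pseudocount 0), and the probe set of highest mean stood for a gene. Genes above the 40th percentile of all values (5.97) on at least 3 arrays were tested, 13925 of 19938. The test was limma 3.58.1 (lmFit, eBayes) in R 4.3.3 with genotype as the only factor, two-sided, Benjamini-Hochberg adjusted over all tested genes. It was tested on simulated data. SE is that of the fit.

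The locus and gene lists were chosen with earlier results of these data known. Besides the 10 genes, the text names every measured gene of the stretch, up to 6 called genes of each list by adjusted p, and Socs3, Tnp1 and Tekt1 to Tekt4. Other genes named were chosen after their values were seen. The listed name H1fnt was updated to H1f7. Alternatives covered the filter, normalization, offset, probe set rule, variance model, array weights, replicate block and each array left out. Promoter windows come from RefSeq, without those of a single chromosome, which is not that of the locus. Figures were drawn with matplotlib 3.10.9.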

Additional observations from a re-analysis of the deposited data

How the results depend on the processing

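Over the 15 alternatives the median difference of the locus genes stayed between 0.28 (offset of 32) and 0.37 (60th percentile filter, which kept 5 of the 10), and 0.30 to 0.36 with 1 array left out. No difference of a locus gene but that of Tekt5 changed sign. The count of called genes over all tested was 3639 and ran from 2416 (without KO replicate 1) to 3251 with 1 array left out. The count of called sperm genes was 2. It was 6 of 30 with no intensity filter, 1 with the offset of 32 and 0 of 2 with the 60th percentile filter, where 0 had an unadjusted limma p under 0.05. With 1 array left out it was 1 to 2, that of the other genes of the stretch 5 to 7 (from 8), that of SOCS, JAK and STAT genes 7 to 12 (from 10) and that of interferon gamma induced genes 5 to 7 (from 7). Deviations from the group means correlated at -0.02, -0.21 and -0.06 between arrays of the same replicate number. No pairing by number was seen, though so few arrays cannot settle whether there was any. With the replicate block, 7 other genes of the stretch, 2 sperm genes, 10 SOCS, JAK and STAT genes and 6 interferon gamma induced genes were called. Intensities near the filter, as in Tekt5, Tnp2 and the protamine genes, carry much background, which compresses their differences. RMA values have no detection call.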

Other observations

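Among the sperm genes under the intensity filter, which were not tested, Tnp1, the other transition protein gene, read 4.81 ± 0.14 in WT and 5.08 ± 0.14 in KO (SD, n = 3) with overlapping groups. The tektin genes Tekt1, Tekt3 and Tekt4 had differences of -0.28, 0.36 and 0.09. Gapdhs, the sperm form of glyceraldehyde-3-phosphate dehydrogenase, read 5.60 ± 0.18 and 6.00 ± 0.04, a difference of 0.40, and Pgk2, the sperm phosphoglycerate kinase, 4.39 ± 0.02 and 4.58 ± 0.04. Of all 30 sperm genes outside the locus, 10 had every KO array above every WT array and 2 every KO array below, beside 22.0% and 20.5% of the tested genes. The 2 sets are unlike, since 22 of the 30 lay under the filter and the tested genes all passed it. No share was computed over genes under the filter, so nothing is read from these counts. Values so low lie near the background of the arrays.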
